A study of Mus musculus with 24 samples.

Results

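The last step of a mouse embryonic stem cell differentiation, from day 6 to day 9, was examined in wild-type (WT) cells. It is held by 6 of the 24 libraries of the series, 3 of WT cells at day 9 and 3 of WT cells at day 6. Genes were taken where the deposited FPKM (fragments per kilobase of gene, scaled by library) was at least 1 in at least 3 of these 6 libraries. That left 12442 of the 53465 genes in the table. At that limit Myom1, a protein of the sarcomere, entered with 1.65, 1.41 and 1.16 FPKM at day 9 against 0.232, 0.407 and 0.121 FPKM at day 6. A gene could thus enter through its day 9 or its day 6 values alone, which partly fixes the direction of its change. Mixl1, a homeobox factor of the primitive streak, stayed out with 0.0999, 0.131 and 0.381 FPKM at day 9 against 0.306, 1.16 and 1.00 FPKM at day 6. Here and below, values are listed in the order of replicates 1, 2 and 3.

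The series set WT cells beside cells with a knockout (KO) of Atf3, a stress-inducible transcription factor, at days 0, 3, 6 and 9, with 3 libraries in each of the 8 groups. Per the labels, the stem cells were kept in serum with leukaemia inhibitory factor, the GSK3 inhibitor CHIR99021 and the MEK inhibitor PD0325901. The sources used here give neither the factors that drove differentiation nor the number of KO clones. No label says whether replicates were grown as separate cultures, so p-values rest on the spread between libraries and this spread may be technical.

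When embryonic stem cells leave pluripotency they can pass through a state like the primitive streak, where Nodal, Wnt and FGF signals turn on T and Eomes and where mesoderm and endoderm arise. Mesoderm then splits into lineages such as lateral plate, heart, blood and vessel. Smooth muscle and fibroblasts follow with a contractile apparatus and a collagen matrix, and yolk sac endoderm secretes carrier proteins while primitive red cells in its blood islands make embryonic globins.

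Depth, as reads recovered from the FPKM steps, was 25274436, 16562126 and 13771125 reads in WT day 9 replicates 1 to 3. In WT day 6 replicates 1 to 3 it was 11746276, 14634463 and 7855631 reads. Reads of 3 rRNA-type genes made up 4.42%, 9.78% and 14.9% at day 9, and 18.4%, 12.2% and 45.6% at day 6. WT day 6 replicate 3 therefore stood apart, with the lowest depth of the 6 and 4272090 reads outside those genes. WT day 6 replicate 2 stood apart in transcripts of the mitochondrial genome, with a sum of 23000.3 FPKM against 4354 to 8032 FPKM in the other 5. Leading counts are given with and without the libraries that move them. Libraries left out are those of WT day 9 and WT day 6 unless a KO library is named, since KO libraries enter these values only through the shared spread. In these bulk samples, fewer cells of a type and less RNA per cell cannot be told apart.

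Between day 6 and day 9 the WT cells gained matrix, contractile and embryonic red blood cell genes and lost genes of the primitive streak. In limma with Benjamini-Hochberg adjustment, 1196 genes rose and 774 fell at an adjusted p under 0.05. These 1970 genes are 15.8% of those tested, with 9.61% rising and 6.22% falling, and the median log2 fold change of all tested genes was 0.02. Counts of list members below are to be read against these shares. In 3089 of the 12442 genes, or 24.8%, the values of the days did not overlap, whether the gene was called or not. Fold changes are differences of mean log2(FPKM + 1), which understate the change of genes near or under 1 FPKM. Without WT day 6 replicate 3, 828 genes passed, 585 rising and 243 falling, and 796 of them were among the 1970. The count was 1292 without WT day 6 replicate 1, 3932 without WT day 6 replicate 2, 1194 without WT day 9 replicate 1 and 1073 without WT day 9 replicate 2. With the rRNA-type share as a covariate, added after seeing the data, 741 rose and 286 fell, and 777 of these 1027 genes were among the 1970. Scaling moved the balance of directions: rescaled to TPM, the median of all genes was 0.93 and 4774 genes rose against 93 that fell, and with equal sums outside the rRNA-type genes the split was 2135 to 409.

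**Figure D1:**
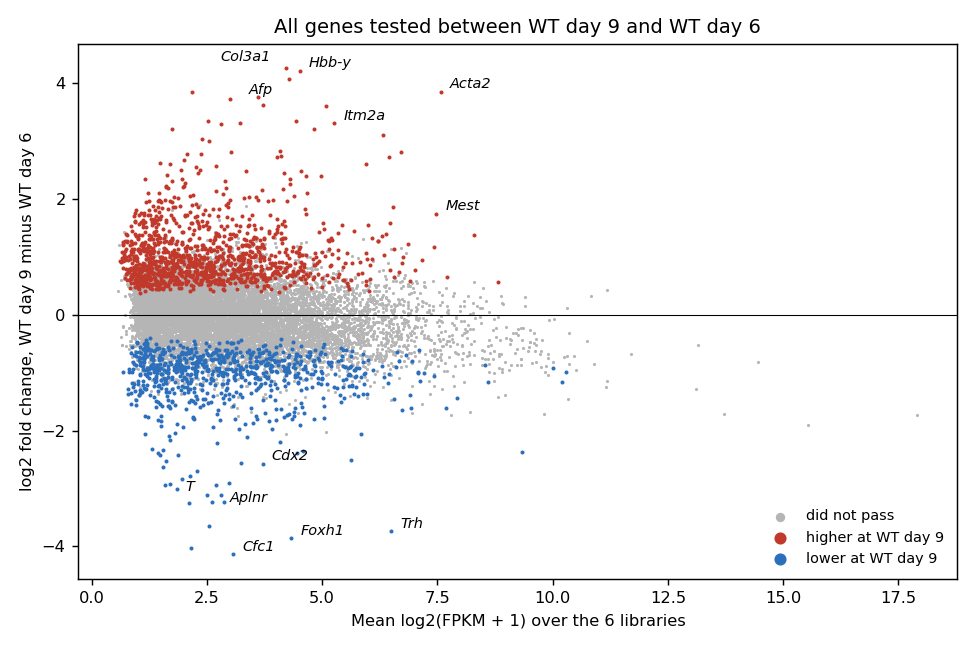
Log2 fold change of WT day 9 against WT day 6 for 12442 genes (vertical axis, difference of mean log2(FPKM + 1)), plotted over mean level (horizontal axis, log2 scale). Genes that rose, genes that fell and genes that did not pass are coloured apart, and some of the genes described are named, from Col3a1 at 4.25 to Cfc1 at -4.14.

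The genes with the largest rise included ones typical of connective tissue, smooth muscle, embryonic red cells and yolk sac endoderm, while cell types themselves were not measured. Col3a1 (chr1:45311538-45349706, mm10, plus strand), the alpha chain of the fibrillar type III collagen, led. It stood at 88.7, 90.2 and 63.2 FPKM at day 9 against 2.60, 3.79 and 3.41 FPKM at day 6. The groups were far apart, and the log2 fold change was 4.25 with a standard error (SE) of 0.35 (adjusted p = 5.53e-08). Afp (chr5:90490737-90508907, plus strand), the serum carrier of yolk sac and fetal liver, stood at 96.7, 62.6 and 79.8 FPKM at day 9 against 3.94, 3.09 and 4.29 FPKM at day 6 (log2 fold change 4.07, SE 0.72, adjusted p = 6.52e-04). Next to them came the trefoil peptide gene Tff3 (3.85), the imprinted zinc-finger factor Plagl1 (3.76), Nepn (3.73), which codes for a secreted leucine-rich repeat protein, and the membrane protein gene Itm2a (3.30). All 12 genes ranked highest had 3 day 9 values above all day 6 values, a condition of their choice. Hba-a1 alone of these 12 lost its call when single libraries were left out, with adjusted p = 0.0787 without WT day 6 replicate 3, 0.0541 without WT day 9 replicate 2 and 0.0536 without WT day 9 replicate 3.

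**Figure D2:**
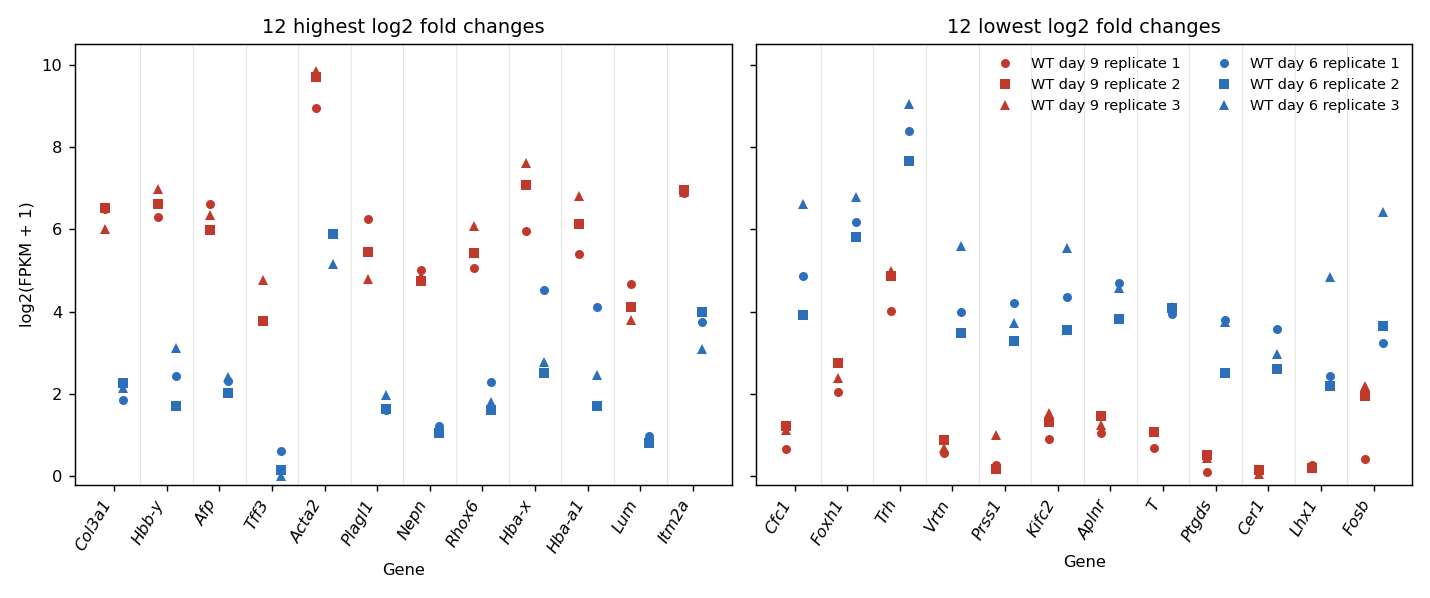
FPKM of the 12 genes with the highest and the 12 with the lowest log2 fold change, on a log2(FPKM + 1) axis, with 1 point per library for WT day 9 and WT day 6. Points of the groups do not overlap for any of the 24 genes, and the day 6 points spread widest for Cfc1, Lhx1 and Fosb, where WT day 6 replicate 3 is highest.

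Cfc1 and Foxh1 were among the genes ranked lowest. Cfc1 (chr1:34535648-34544313, plus strand), a co-receptor for Nodal, stood at 0.578, 1.34 and 1.17 FPKM at day 9 against 28.4, 14.2 and 96.6 FPKM at day 6 (log2 fold change -4.14, SE 0.55, adjusted p = 3.35e-05). Foxh1 (chr15:76668225-76669948, minus strand), the DNA-binding partner of the Smad proteins that carry the Nodal signal, stood at 3.13, 5.74 and 4.28 FPKM at day 9 against 71.1, 55.4 and 110.1 FPKM at day 6 (-3.86, SE 0.24, adjusted p = 1.80e-09). The days did not overlap for Foxh1, and WT day 6 replicate 3 set much of the day 6 mean of Cfc1. Trh, the precursor of thyrotropin-releasing hormone, stood at 15.2, 28.0 and 30.8 FPKM at day 9 against 334, 202 and 524 FPKM at day 6 (-3.74, SE 0.39, adjusted p = 1.32e-06). Vrtn, which shapes the number of trunk vertebrae, followed with -3.64, the trypsin gene Prss1 with -3.26 and the prostaglandin synthase gene Ptgds with -3.0. Kifc2, a kinesin gene, changed by -3.23. It ends at 76668196 on the plus strand of chromosome 15, beside the end of Foxh1 on the minus strand, and counting by strand is not stated, so the levels of both are uncertain. Fosb, an AP-1 factor, fell as well (-2.91, adjusted p = 0.0187), but its call was lost without WT day 6 replicate 3 (0.167) and without WT day 9 replicate 1 (0.100).

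Most primitive streak genes fell. Of 21 listed, 16 were tested, and 12 of them fell and none rose, beside 6.22% of all tested genes falling, with a median log2 fold change of -1.55. Cer1, Fgf8 and Mesp1 entered the test through their day 6 values alone, so this count leans in part on the filter. T (Brachyury), the T-box factor of the streak, stood at 0.606, 1.10 and 1.10 FPKM at day 9 against 14.4, 16.01 and 16.2 FPKM at day 6 (-3.10, SE 0.60, adjusted p = 0.00143). Its replicates were close at both days, and no value of one day came near the other. Cer1 (chr4:82881751-82885148, minus strand), a secreted inhibitor of Nodal, BMP and Wnt, stood at 0.0988, 0.115 and 0.0387 FPKM at day 9 against 10.97, 5.07 and 6.86 FPKM at day 6 (-2.94, SE 0.24, adjusted p = 5.53e-08). Aplnr, the receptor for apelin and Elabela on migrating mesoderm, stood at 1.06, 1.78 and 1.36 FPKM at day 9 against 24.8, 13.1 and 22.9 FPKM at day 6 (-3.11, SE 0.26, adjusted p = 5.62e-08). None of the 9 values of these genes at day 9 came near the day 6 range.

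The streak genes Fgf8, Mesp1, Lhx1 and Eomes leaned on WT day 6 replicate 3 for their level, though not for their call. Fgf8, the growth factor of the streak, stood at 0.424, 0.259 and 0.748 FPKM at day 9 against 5.99, 4.78 and 26.8 FPKM at day 6 (-2.83, adjusted p = 9.29e-05). Mesp1, which marks early heart and vessel progenitors, was listed at 0 in WT day 9 replicate 1 and stood at 0.0783 and 0.264 FPKM in replicates 2 and 3, against 2.83, 2.18 and 12.9 FPKM at day 6 (-2.32, adjusted p = 5.11e-05). The LIM homeobox gene Lhx1 (-2.93) and the T-box gene Eomes (-1.92, adjusted p = 5.33e-04) showed the same spread. Lhx1 has an antisense neighbour whose reads cannot be separated without strand. The 12 falling members numbered 9 without WT day 6 replicate 3, 9 without WT day 9 replicate 1, and 8 under TPM, where 2 others rose. The list median stayed under 0 in each scaling, at -0.97 under TPM and -1.29 with equal sums.

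**Figure D3:**
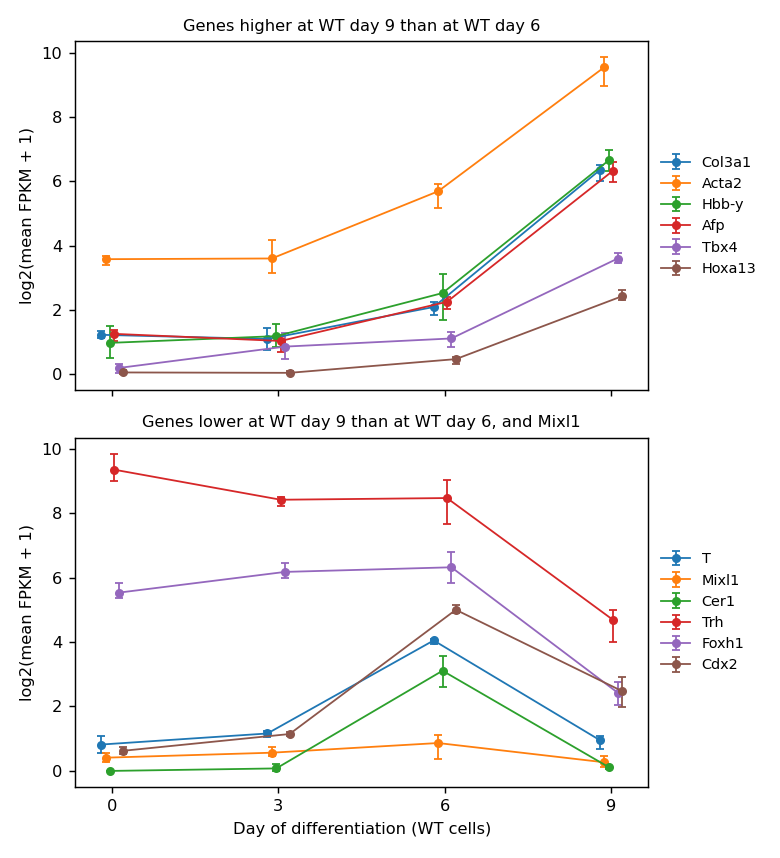
Mean FPKM over days 0, 3, 6 and 9 in WT cells for 12 genes, on an axis of log2(mean FPKM + 1), with bars from the lowest to the highest of 3 libraries. T, Cer1 and Cdx2 peak at day 6, Trh and Foxh1 are high until day 6, and Acta2, Col3a1, Hbb-y, Afp, Tbx4 and Hoxa13 are highest at day 9.

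Along the whole WT course, given as a description, the genes that fell in this step followed different paths before it. The means of T were 0.764, 1.24, 15.6 and 0.937 FPKM over days 0, 3, 6 and 9. Cer1 was listed at 0 in all day 0 libraries and stood at 0.0556, 7.63 and 0.0841 FPKM at days 3, 6 and 9, so both genes were transient. Trh, in contrast, was already high in stem cells, with 650.6, 340.6, 353 and 24.7 FPKM over the 4 days, and Foxh1 likewise, with 45.3, 71.3, 78.9 and 4.38 FPKM. Of the genes that rose, Col3a1 (1.35, 1.14, 3.27 and 80.7 FPKM), Afp (1.39, 1.05, 3.77 and 79.7 FPKM) and Hbb-y (0.972, 1.28, 4.77 and 99.6 FPKM) stayed low through day 6. Acta2 began earlier, with 10.96, 11.1, 50.6 and 747 FPKM.

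Smooth muscle genes of the contractile apparatus rose. Acta2 (chr19:34241090-34255590, minus strand), the smooth muscle actin, stood at 492, 823 and 925 FPKM at day 9 against 59.3, 57.7 and 34.8 FPKM at day 6 (3.85, SE 0.42, adjusted p = 2.47e-06). Tagln, the actin-binding transgelin, stood at 187, 309 and 364 FPKM at day 9 against 32.2, 94.4 and 18.9 FPKM at day 6 (2.80, SE 0.42, adjusted p = 1.03e-04). Every day 9 value of both genes lay above every day 6 value, beside 24.8% of all tested genes without overlap in either direction. Of 20 listed genes, 15 were tested, 6 rose and none fell, beside 9.61% and 6.22% of all tested genes, with a median of 0.50. The others were the regulatory light chain Myl9 (2.33), the enteric actin Actg2 (2.2), calponin Cnn1 (1.37) and leiomodin Lmod1 (0.56). Myh11, the heavy chain of mature smooth muscle, was below the filter, with at most 0.183 FPKM at day 9 and at most 0.104 FPKM at day 6. The summed level of the list was 1286 to 2124 FPKM at day 9 and 640.3 to 766 FPKM at day 6. The counts were 7 rising and 1 falling without WT day 6 replicate 2.

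Of 26 genes of heart muscle, 15 were tested, 6 rose and none fell, beside 9.61% and 6.22% of all tested genes, and the median was 0.70. The 6 were 4 genes of the sarcomere and 2 of secreted natriuretic peptides. Actc1, the cardiac actin, stood at 38.8, 39.7 and 43.3 FPKM at day 9 against 7.01, 6.15 and 3.40 FPKM at day 6 (2.72, SE 0.47, adjusted p = 4.96e-04). The natriuretic peptide genes Nppb (2.45) and Nppa (1.94), the myosin-binding protein gene Mybpc3 (2.18) and Myom1 (0.94) rose too. Myl4 (1.48) passed, but not without WT day 6 replicate 3 (adjusted p = 0.0534), WT day 9 replicate 2 (0.0537) or WT day 9 replicate 3 (0.0664). Myh6, the atrial myosin heavy chain, had 2.22, 2.21 and 2.51 FPKM at day 9 against 1.49, 1.02 and 1.06 FPKM at day 6 and did not pass (adjusted p = 0.0931), nor did troponin T, Tnnt2 (adjusted p = 0.092). Both passed without KO day 6 replicate 3 (adjusted p = 0.0495 for Myh6 and 0.0461 for Tnnt2), where 8 of the heart muscle genes rose and 2 fell, and without KO day 9 replicate 3 (0.0378 and 0.0379), where 8 rose and 1 fell. Without KO day 6 replicate 1, 1 fell, and without KO day 9 replicate 2, 7 rose, Tnnt2 among them (0.0476), and 1 fell. With WT libraries left out, 7 rose and 1 fell without WT day 6 replicate 2, and 5 and 1 without WT day 9 replicate 3. Without WT day 6 replicate 3 or WT day 9 replicate 2, 5 rose and none fell. Of 10 tested cardiac transcription factors, Gata6 (1.40, adjusted p = 4.40e-04) and Isl1 (0.87) rose and Hand1 (-1.01) fell. These counts stand beside 9.61% rising and 6.22% falling over all tested genes. Isl1 was not called without WT day 6 replicate 1 or WT day 9 replicate 1, nor Hand1 without WT day 6 replicate 3 or WT day 9 replicate 1. Without WT day 6 replicate 3, 4 of the factors rose and none fell, and without WT day 9 replicate 1, 1 rose and none fell. Under TPM 8 of the factors rose and none fell. Nkx2-5 had 0.376, 1.01 and 1.10 FPKM at day 9 against 3.05, 1.09 and 2.71 FPKM at day 6 and did not pass (adjusted p = 0.182). Gata4 was tested and did not pass either.

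The promoters of these contractile genes were searched for the CArG box, the site of serum response factor, in a window of 250 bases before to 50 after the RefSeq start (build GRCm38.p6). A match on either strand was present in 1 of 16 smooth muscle and 5 of 24 heart muscle genes with a promoter. It was present in 1.81% of all 27025 genes with a promoter and in 1.63% of their 32851 promoters. A match is a string of letters in the window, not evidence of binding. The 3 called genes with a match are shown 5′ to 3′ on the gene's strand with the match in capitals, for Myl9 on the plus strand at chr2:156775214-156775513, Actc1 on the minus strand at chr2:114052826-114053125 and Myom1 on the plus strand at chr17:71019307-71019606. Counted from the start, the matches begin at bases -161, -47 and -99.
Myl9: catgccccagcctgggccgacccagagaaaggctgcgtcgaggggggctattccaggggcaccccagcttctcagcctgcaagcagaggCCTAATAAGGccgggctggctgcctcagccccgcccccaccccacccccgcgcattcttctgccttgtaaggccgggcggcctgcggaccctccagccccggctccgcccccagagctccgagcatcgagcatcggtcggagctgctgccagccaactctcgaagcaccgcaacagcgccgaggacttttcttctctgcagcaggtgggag
Actc1: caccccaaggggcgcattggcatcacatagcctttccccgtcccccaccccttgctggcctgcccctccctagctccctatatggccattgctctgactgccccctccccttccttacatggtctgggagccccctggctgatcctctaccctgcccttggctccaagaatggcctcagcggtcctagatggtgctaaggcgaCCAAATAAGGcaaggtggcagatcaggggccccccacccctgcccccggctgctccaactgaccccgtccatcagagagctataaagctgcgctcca
Myom1: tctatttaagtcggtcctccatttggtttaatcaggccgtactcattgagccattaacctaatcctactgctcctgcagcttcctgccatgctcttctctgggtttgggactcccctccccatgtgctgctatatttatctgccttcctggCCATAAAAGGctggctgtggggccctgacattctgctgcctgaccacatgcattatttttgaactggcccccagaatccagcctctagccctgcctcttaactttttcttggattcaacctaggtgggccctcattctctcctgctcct

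Genes of the extracellular matrix rose in several lists. Of 32 collagen genes, 25 were tested, 13 rose and 3 fell, with a median of 0.96, beside 9.61% of all tested genes rising. Besides Col3a1, the type I chains were Col1a1, with 72.0, 135 and 129 FPKM at day 9 against 54.2, 28.4 and 31.2 FPKM at day 6 (1.54, adjusted p = 0.00126), and Col1a2, with 13.1, 17.6 and 14.4 FPKM at day 9 against 4.04, 3.62 and 1.85 FPKM at day 6 (1.98, adjusted p = 1.32e-04). Col1a1 in WT day 9 replicate 1 was close to WT day 6 replicate 1, while Col1a2 was well apart. Col14a1, of the collagens that decorate fibrils, rose by 2.61, the type V chain Col5a2 by 1.72 and the basement membrane chain Col4a5 by 1.72. The collagens counted 14 rising and 5 falling without WT day 6 replicate 2.

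Of 38 other matrix proteins and their enzymes, 29 were tested, 16 rose and none fell, with a median of 1.02. Postn, the periostin of fibroblasts, stood at 35.0, 17.6 and 14.6 FPKM at day 9 against 1.36, 1.64 and 0.791 FPKM at day 6 (3.29, SE 0.52, adjusted p = 2.05e-04). Lum, the collagen-binding lumican, rose by 3.33 and Tnc, the tenascin of growing tissue, by 2.81. Ctgf (2.47) and Thbs1 (2.44), secreted proteins that bind growth factors and matrix, rose with them, as did Loxl2 (2.15), which crosslinks collagen. The matrix proteins had 1 falling gene without KO day 9 replicate 1, and 13 rising and 1 falling without WT day 6 replicate 3. Lox itself was below the filter, and fibrillin Fbn1 did not pass (0.20, adjusted p = 0.56). Of 18 tested matrix proteases and inhibitors 10 rose and none fell, with the protease genes Adamts1 at 1.63 and Adamts9 at 1.53 and the metalloprotease inhibitor Timp2 at 1.03. Timp3 (1.71) and Timp1 (1.10) were not called without WT day 6 replicate 3, where 5 of the 18 rose.

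In the basement membrane list the direction was split. Of 15 tested genes, 5 rose, among them nidogen Nid1 (1.98, adjusted p = 0.00481) and the laminin chain Lama1 (1.33), and 4 fell, among them Lama5 (-1.04, adjusted p = 0.00473). Lama1 had 40.4, 22.4 and 21.7 FPKM at day 9 against 12.1, 8.32 and 10.4 FPKM at day 6, and Lama5 had 15.6, 11.1 and 10.1 FPKM at day 9 against 22.4, 19.2 and 40.2 FPKM at day 6. Neither pair of groups overlapped, beside 24.8% of all tested genes without overlap. The counts were 2 and 3 without WT day 6 replicate 3, and without WT day 9 replicate 1 they were 1 and 4, with Lama1 no longer called. Under TPM 8 of the 15 rose and none fell.

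**Figure D4:**
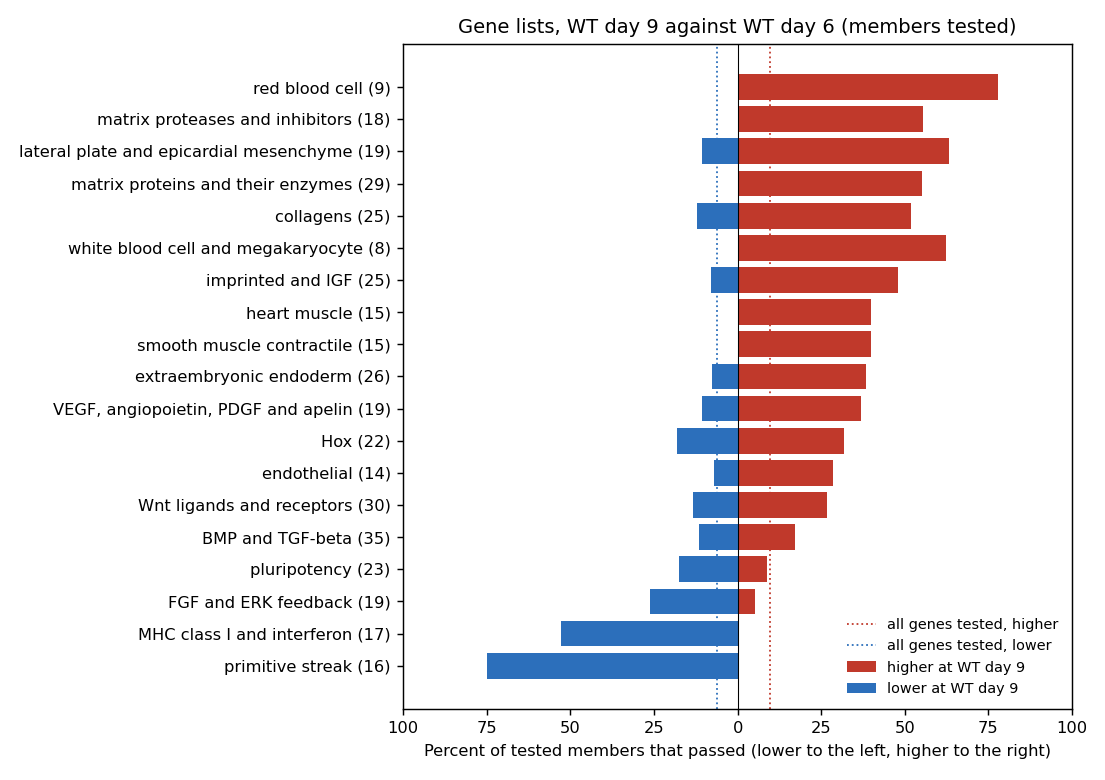
Share of tested members of each gene list that passed (horizontal axis, percent), higher at WT day 9 to the right and lower to the left, with the number tested in brackets and dotted lines at the shares over all tested genes (9.61% higher and 6.22% lower). Red blood cell genes reach farthest right, with 7 of 9 higher, and primitive streak genes farthest left, with 12 of 16 lower.

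Genes of embryonic red blood cells rose. Of 17 listed genes in the table, 9 were tested, 7 rose and none fell, beside 9.61% and 6.22% of all tested genes, with a median of 2.60. Alas2 entered the test through its day 9 values alone, and Hbb-bs had 1 day 6 value above 1 FPKM, so this count leans in part on the filter. Hbb-y (chr7:103851749-103853216, minus strand), an embryonic beta-type globin, stood at 78.1, 96.2 and 124 FPKM at day 9 against 4.44, 2.25 and 7.61 FPKM at day 6 (4.21, SE 0.78, adjusted p = 9.57e-04). Hba-x (chr11:32276400-32278116, plus strand), the embryonic alpha-type globin, stood at 61.0, 133 and 194 FPKM at day 9 against 22.1, 4.67 and 5.87 FPKM at day 6 (3.61, SE 0.82, adjusted p = 0.00553). Hbb-bh1, the other embryonic beta-type globin, had 103, 163 and 208 FPKM at day 9 against 57.8, 15.1 and 16.1 FPKM at day 6 (2.60, adjusted p = 0.0234). WT day 6 replicate 1 was the highest of its group for Hba-x and Hbb-bh1, and WT day 9 replicate 1 the lowest of its own.

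Adult-type globins and other red cell genes moved the same way at lower levels. Hbb-bs had 7.49, 10.01 and 12.97 FPKM at day 9 against 1.26, 0.154 and 0.597 FPKM at day 6 (2.77, adjusted p = 0.00188). Hba-a1 rose by 3.35. Hba-a1 and Hbb-bs each have a near-identical copy, and how reads were split between copies is uncertain. Alas2, the enzyme that starts haem synthesis in red cells, had 2.98, 3.16 and 3.44 FPKM at day 9 against 0.658, 0.764 and 0.286 FPKM at day 6 (1.43, adjusted p = 0.0231). The red cell factors Gata1 and Klf1 were below the filter. Only 4 genes rose without WT day 6 replicate 3, and 4 without WT day 9 replicate 2. Hbb-bh1 was then not called (adjusted p = 0.122 and 0.0682), nor without WT day 9 replicate 3 (0.0601). Alas2 was not called without WT day 6 replicate 1 (0.0511), WT day 6 replicate 3 (0.114), WT day 9 replicate 1 (0.0538) or WT day 9 replicate 2 (0.0623).

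The same promoter window was searched for AGATAA, the core read by GATA factors, on both strands. It was present in 4 of 13 red cell genes with a promoter, in 12.7% of all genes with a promoter and in 11.2% of all promoters. Among called genes it stands in Hbb-bs (minus strand, chr7:103827879-103828178) from base -210, and in Alas2 (plus strand, chrX:150547167-150547466) from base -86, there as its reverse complement.
Hbb-bs: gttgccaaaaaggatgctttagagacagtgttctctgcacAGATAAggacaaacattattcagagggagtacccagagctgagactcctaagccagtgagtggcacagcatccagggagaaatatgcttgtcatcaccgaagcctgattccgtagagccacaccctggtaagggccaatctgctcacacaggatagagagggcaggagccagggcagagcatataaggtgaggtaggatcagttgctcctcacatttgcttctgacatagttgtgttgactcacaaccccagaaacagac
Alas2: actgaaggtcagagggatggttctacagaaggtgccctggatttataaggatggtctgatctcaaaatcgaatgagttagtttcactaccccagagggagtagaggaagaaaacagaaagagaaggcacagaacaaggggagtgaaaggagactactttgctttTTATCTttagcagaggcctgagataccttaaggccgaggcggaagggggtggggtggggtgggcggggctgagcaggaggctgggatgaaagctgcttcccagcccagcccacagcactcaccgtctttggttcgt

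Genes of platelets and of early blood progenitors rose as well, at levels under 10 FPKM. Pf4, a chemokine of megakaryocytes, was listed at 0 in every day 6 library and stood at 2.90, 4.29 and 5.23 FPKM at day 9 (adjusted p = 2.37e-06). Ppbp, another platelet chemokine, had 3.78, 4.33 and 4.47 FPKM at day 9 against 0.649, 0.492 and 0.212 FPKM at day 6 (1.85, SE 0.12, adjusted p = 3.32e-09). The integrin chain Itgb3 rose by 1.90 and the progenitor antigen Cd34 by 1.10. Runx1, the factor of definitive blood, passed (0.53, adjusted p = 0.0294) but lost its call without WT day 6 replicate 1 or 3 or any 1 of the WT day 9 libraries. Of 8 tested genes in this list 5 rose, beside 9.61% of all tested genes. Pf4 and Ppbp entered the test through their day 9 values alone, so this count leans on the filter. Ptprc and Spi1, which define white blood cells, were below the filter.

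Of 27 endothelial genes, 14 were tested, 4 rose and 1 fell, beside 9.61% and 6.22% of all tested genes, and the median was 0.17. Among the rising genes, Cdh5 entered the test through its day 9 values alone. Cdh5, the cadherin of vessel junctions, had 2.62, 2.57 and 2.10 FPKM at day 9 against 0.209, 0.352 and 0.382 FPKM at day 6 (1.38, SE 0.25, adjusted p = 6.59e-04). Claudin Cldn5 (1.70) and the adhesion molecule Icam2 (1.39) rose with it. Pecam1 had 3.06, 3.39 and 3.05 FPKM at day 9 against 3.29, 2.35 and 2.61 FPKM at day 6, and Kdr, the VEGF receptor, had 5.72, 4.45 and 3.00 FPKM at day 9 against 3.12, 1.88 and 7.14 FPKM at day 6. Neither passed (adjusted p = 0.542 and 0.63). Etv2, the factor that opens the blood and vessel lineage, fell (-1.60, adjusted p = 0.008), except without WT day 6 replicate 3 (0.0748) or WT day 9 replicate 1 (0.0508). Plvap (1.26) was not called without WT day 6 replicate 3, WT day 9 replicate 2 or WT day 9 replicate 3. The falling genes numbered 3 without WT day 6 replicate 2, 2 without WT day 9 replicate 3 and 0 without WT day 6 replicate 3 or WT day 9 replicate 1.

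Transcription factors of lateral plate mesoderm and organ mesenchyme rose. Of 22 listed, 19 were tested, 12 rose and 2 fell, with a median of 1.04. Tbx4, a T-box factor of hindlimb, lung and allantois mesenchyme, had 10.1, 12.7 and 10.7 FPKM at day 9 against 1.21, 1.48 and 0.809 FPKM at day 6 (2.49, SE 0.24, adjusted p = 4.41e-07). Tcf21, of epicardial and visceral mesenchyme, had 7.47, 8.10 and 7.42 FPKM at day 9 against 0.860, 0.655 and 1.07 FPKM at day 6 (2.22, SE 0.23, adjusted p = 1.34e-06). Replicates of both genes agreed closely. Twist1 rose (1.62), and Pitx1 (2.04) rose except without WT day 6 replicate 2 or 3 or WT day 9 replicate 2 or 3. Foxf1, of the visceral layer, had 7.28, 10.1 and 6.66 FPKM at day 9 against 10.3, 9.00 and 22.1 FPKM at day 6 and did not pass (adjusted p = 0.064). The counts were 8 rising and 1 falling without WT day 9 replicate 2, 11 and 3 without WT day 6 replicate 2, 10 and 1 without WT day 6 replicate 1, and 11 and 1 without WT day 9 replicate 3. No gene fell without WT day 6 replicate 3 or WT day 9 replicate 1, nor under TPM.

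The paraxial and intermediate mesoderm list had 7 tested genes, of which 3 fell and 1 rose (median -1.13). Dll3 entered the test through its day 6 values alone, so this count leans in part on the filter. Dll3, the Notch ligand of forming somites, had 0.0402, 0.263 and 0.212 FPKM at day 9 against 7.80, 3.78 and 8.05 FPKM at day 6 (-2.63, adjusted p = 1.52e-07). Lhx1 and the forkhead gene Foxc2 (-1.13, adjusted p = 0.00206) were the others that fell. Tbx6 and Msgn1, which define presomitic mesoderm, were below the filter. Without WT day 6 replicate 3, 5 genes fell and none rose, and Osr1 (0.85) was then not called, nor without WT day 9 replicate 2.

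Hox genes, which give positional identity along the body axis, moved in both directions. Of 39 listed, 22 were tested, 7 rose and 4 fell, beside 9.61% and 6.22% of all tested genes, with a median of 0.31. Hoxa13 and Hoxd13 entered the test through their day 9 values alone and Hoxb1 through its day 6 values alone. These counts thus lean in part on the filter. Hoxa13 (chr6:52257694-52260880, minus strand) had 4.15, 5.09 and 3.92 FPKM at day 9 against 0.249, 0.455 and 0.464 FPKM at day 6 (1.95, SE 0.16, adjusted p = 6.71e-08). Hoxd13 (chr2:74668310-74671599, plus strand) had 4.55, 5.65 and 3.52 FPKM at day 9 against 0.354, 0.382 and 0.462 FPKM at day 6 (1.98, SE 0.18, adjusted p = 1.94e-07). Both genes end their cluster at its posterior side. Hoxa11 (2.27), Hoxa10 (1.72) and Hoxd10 (1.32) were also among the 7, and Hoxa11 overlaps an antisense gene, so its level is uncertain. Hoxb1, the most anterior gene of its cluster, fell, with 0.321, 0.344 and 0.406 FPKM at day 9 against 3.60, 1.55 and 2.37 FPKM at day 6 (-1.33, adjusted p = 3.11e-05). The counts were 8 and 2 without WT day 6 replicate 1 or WT day 9 replicate 1, and under TPM 13 rose and 1 fell.

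Yolk sac and other extraembryonic endoderm genes were divided. Of 34 listed, 26 were tested, 10 rose and 2 fell, beside 9.61% and 6.22% of all tested genes, with a median of 0.26. The 6 called members of largest change all rose, and the 2 that fell are not named. Besides Afp, the retinol carrier Rbp4 had 177, 224 and 318 FPKM at day 9 against 50.4, 19.1 and 18.6 FPKM at day 6 (3.10, SE 0.78, adjusted p = 0.0103). The apolipoprotein gene Apoa1 had 31.0, 39.4 and 69.9 FPKM at day 9 against 7.96, 2.68 and 6.87 FPKM at day 6 (2.82, adjusted p = 0.0186). Neither pair of groups overlapped, beside 24.8% of all tested genes without overlap. However, Rbp4 was not called without WT day 6 replicate 3 (adjusted p = 0.0585), nor Apoa1 without WT day 6 replicate 3 (0.0507) or WT day 9 replicate 3 (0.0561). Apoa2 (1.71), the proteoglycan Srgn (2.09) and the X-linked homeobox gene Rhox5 (1.73) kept their calls without each of the 6 libraries. The summed level of the list was 726 to 1334 FPKM at day 9 and 626 to 1190 FPKM at day 6, so the list did not separate the days. In the list 5 rose and 1 fell without WT day 6 replicate 3, 1 fell without KO day 9 replicate 1 or 3, and under TPM 15 rose and none fell.

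Trophoblast and placenta genes also went in opposite directions. Of 16 tested, 4 rose and 3 fell, beside 9.61% and 6.22% of all tested genes, with a median of 0.45. Rhox6 had 32.1, 41.8 and 66.5 FPKM at day 9 against 3.92, 2.05 and 2.498 FPKM at day 6 (3.61, SE 0.43, adjusted p = 7.65e-06), and its neighbour in the Rhox cluster, Rhox9, rose by 2.5. Cdx2, a factor of trophectoderm and of posterior mesoderm and hindgut, had 2.92, 4.20 and 6.58 FPKM at day 9 against 30.1, 28.8 and 34.2 FPKM at day 6 (-2.57, SE 0.26, adjusted p = 1.19e-06). Ets2 (1.29) rose, while Gata3 (adjusted p = 0.427) and Tfap2c (adjusted p = 0.0795) did not pass. Tfap2c passed without KO day 6 replicate 3 (adjusted p = 0.0427). Under TPM 9 rose and 2 fell. Krt7 (0.85) was not called without WT day 6 replicates 1 or 3 or WT day 9 replicates 2 or 3.

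Imprinted genes and insulin-like growth factor genes rose in 12 of 25 tested cases and fell in 2, with a median of 0.72. Plagl1 had 75.1, 42.8 and 26.8 FPKM at day 9 against 2.03, 2.09 and 2.93 FPKM at day 6 (3.76, SE 0.40, adjusted p = 1.52e-06). Dlk1, a membrane protein of fetal mesenchyme, had 24.1, 56.7 and 60.7 FPKM at day 9 against 6.20, 3.33 and 8.51 FPKM at day 6 (2.75, SE 0.31, adjusted p = 3.95e-06). Mest had 392.5, 350.4 and 251 FPKM at day 9 against 105, 127 and 67.1 FPKM at day 6 (1.74, adjusted p = 4.19e-04). The day 9 replicates of Plagl1 and Dlk1 spread in opposite orders, and none reached the day 6 range. Phlda2, which limits placental growth, fell (-2.20, adjusted p = 0.00112), and Igfbp7 rose (1.93). Igf2 (0.37, adjusted p = 0.292) and H19, with 1956, 2805 and 3265 FPKM at day 9 against 4466, 2916 and 5632 FPKM at day 6 (adjusted p = 0.13), did not pass. Of the 25, 8 rose and 1 fell without WT day 6 replicate 3 or WT day 9 replicate 2.

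Signalling genes changed member by member. Of 30 tested Wnt ligands, receptors and inhibitors, 8 rose and 4 fell (median 0.24), beside 9.61% and 6.22% of all tested genes. Wnt2, a ligand of heart and lung mesenchyme, had 9.05, 11.9 and 11.01 FPKM at day 9 against 0.896, 0.578 and 1.63 FPKM at day 6 (2.54, SE 0.20, adjusted p = 3.41e-08). The receptor Fzd1 (1.57) and the inhibitors Dkk2 (1.65) and Sfrp2 (1.62) rose with it. Wnt3, the ligand of the streak, fell (-1.58, adjusted p = 0.0218) and was not called without WT day 6 replicate 3 or WT day 9 replicates 1 or 2. Of the Wnt targets only T and Sp5 (-1.33, adjusted p = 6.40e-04) passed among 12 tested, while Axin2 and Lef1 did not. The Wnt list counted 6 and 2 without WT day 6 replicate 3, and under TPM 15 rose and none fell.

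Of 19 tested genes of FGF and ERK feedback, 5 fell and 1 rose, with a median of -0.35 that was 0.62 under TPM. Fgf3 had 1.21, 0.644 and 0.897 FPKM at day 9 against 10.46, 5.599 and 23.96 FPKM at day 6 (-2.70, adjusted p = 9.94e-05), and Fgf15 fell by 1.45 on the log2 scale, beside Fgf8. The gene that rose was the receptor gene Fgfrl1 (0.56, adjusted p = 0.04), whose call was lost without WT day 6 replicates 1 or 2 or WT day 9 replicates 2 or 3. The falling genes were 3 without WT day 6 replicate 3 or WT day 9 replicate 1. Of 11 tested Notch genes Dll3 and the receptor Notch1 (-1.08, adjusted p = 0.00358) fell and none rose, with a median of -0.51 that was 0.37 under TPM and 5 falling without WT day 6 replicate 2. A Notch gene rose without WT day 6 replicate 2, WT day 9 replicate 3, KO day 6 replicate 3 or KO day 9 replicate 3.

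Of 35 tested BMP and TGF-beta genes 6 rose and 4 fell (median 0.14), beside 9.61% rising and 6.22% falling over all tested genes. Of the rising genes, Tgfb3 entered the test through its day 9 values alone. Tgfb3 had 2.04, 2.70 and 2.25 FPKM at day 9 against 0.571, 0.578 and 0.407 FPKM at day 6 (1.13, SE 0.15, adjusted p = 2.14e-05), and Ltbp1 (1.15), which binds latent TGF-beta in the matrix, and the pseudoreceptor Bambi (1.18) rose too. Bmp7 fell (-1.27, adjusted p = 5.09e-04), and Bmp4 and Bmp2 did not pass. The counts were 5 and 2 without WT day 6 replicate 3 or WT day 9 replicates 1 or 2, and 9 and 6 without WT day 6 replicate 2. Under TPM 16 rose and none fell, with a median of 0.92, and with equal sums 12 rose and 3 fell. In the retinoid list, Rdh10 (2.18) and Aldh1a2 (1.2), which make retinoic acid in succession, and the receptor Rarb (1.21) rose, beside Rbp4, and 2 of the 12 tested fell, Cyp26a1 and Rarg. Neither of these 2 was called without WT day 6 replicate 3 or WT day 9 replicate 1, and under TPM 7 of the list rose and none fell. Of 19 genes of vessel growth factors, 7 rose, led by Pdgfc (1.94) and Vegfc (1.08), and 2 fell, Aplnr and its ligand gene Apela (-1.81, adjusted p = 0.00161). Vegfa did not pass (adjusted p = 0.358).

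Of 23 tested genes of pluripotency 2 rose, near the 9.61% over all tested genes, and 4 fell, beside 6.22% of all tested genes. The median was 0.26. The balance rested on the scaling, as under TPM 13 rose and 3 fell (median 1.25), and with equal sums 5 rose and 4 fell. Pou5f1 had 14.3, 30.5 and 34.3 FPKM at day 9 against 19.2, 17.1 and 59.3 FPKM at day 6 (adjusted p = 0.86), and Nanog and Sox2 did not pass either (adjusted p = 0.304 and 0.138). The falls were in Lin28a, an RNA-binding protein that blocks let-7, with 23.7, 31.5 and 27.2 FPKM at day 9 against 121, 84.4 and 155 FPKM at day 6 (-2.05, SE 0.28, adjusted p = 3.64e-05), in Trim71 (-1.90) and in Sall4 (-2.35). Tbx3 (-1.24) was the fourth, and was not called without WT day 6 replicate 1 or 3 or any 1 of the WT day 9 libraries. Dppa2 (1.10) and Nr0b1 (0.81) rose, but neither did without WT day 6 replicate 1 or WT day 9 replicate 2, nor did Nr0b1 without WT day 6 replicate 2, WT day 9 replicate 3 or, with adjusted p = 0.0537, KO day 6 replicate 2. Without WT day 6 replicate 3, 6 of the list rose and 3 fell, and without WT day 6 replicate 1 or WT day 9 replicate 2 none rose and 3 fell.

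Genes of MHC class I presentation and interferon response fell in 9 of 17 tested cases, with none rising and a median of -0.75 that was 0.09 under TPM, where 4 rose and 3 fell. Psmb8, a subunit of the immunoproteasome, had 0.377, 0.493 and 1.304 FPKM at day 9 against 8.09, 10.9 and 13.6 FPKM at day 6 (-2.79, SE 0.29, adjusted p = 1.3e-06). Ifitm1 had 12.8, 21.6 and 27.0 FPKM at day 9 against 146, 106 and 99.4 FPKM at day 6 (-2.5, SE 0.30, adjusted p = 9.29e-06). The peptide transporter gene Tap2 (-1.59) and the class I heavy chain gene H2-K1 (-0.98) fell, whereas H2-D1 did not pass (adjusted p = 0.0905). Without single libraries 8 to 10 fell, and 1 rose without WT day 6 replicate 2.

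Few genes of growth and metabolism passed. Of 33 cell cycle genes 2 rose and none fell, beside 9.61% and 6.22% of all tested genes. The median was -0.02, and Mki67, Top2a and Ccnb1 did not pass. Without WT day 6 replicate 2, 3 rose and 5 fell, and without WT day 9 replicate 1 or 2 none passed. In this list 1 rose without WT day 6 replicate 1 or 3 or KO day 9 replicate 3, Ccnb1 passed without KO day 6 replicate 3 (adjusted p = 0.0472), and under TPM 13 rose and none fell. Of 54 genes of oxidative phosphorylation none passed in limma, where 3 had an unadjusted p under 0.05, and 0 passed with voom on recovered reads. That count rested on the scaling and on the weights, as 29 rose under TPM, 8 with equal sums, and 10 rose and 21 fell with array weights, which weigh each library by its spread. When WT day 6 replicate 2 was left out, 4 of them rose and 1 fell, and 1 rose without KO day 6 replicate 1 and 2 without KO day 6 replicate 3. Ribosomal protein genes had a median of -0.70 that was 0.41 under TPM, with 1 of 75 tested, Rpl12, falling. Their summed level was 21641, 34722 and 52550 FPKM at day 9 against 63670, 41844 and 75586 FPKM at day 6, and within each day its order was that of the rRNA-type share of the libraries. With that share as a covariate the median was -0.02 and none passed. The falling members numbered 31 without WT day 6 replicate 2, 30 without WT day 9 replicate 3, and 0 without each of the other 4 WT libraries. They numbered 12 without KO day 6 replicate 1, 17 without KO day 6 replicate 3 and 2 without KO day 9 replicate 2.

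Glycolysis and hypoxia genes had 4 of 26 tested rising, near the 9.61% over all tested genes, and none falling, with a median of 0.38. Bnip3, a mitophagy protein induced by low oxygen, had 24.97, 23.4 and 20.9 FPKM at day 9 against 2.64, 5.80 and 2.23 FPKM at day 6 (2.48, SE 0.54, adjusted p = 0.0042). P4ha1 (1.47), a collagen prolyl hydroxylase, Pdk1 (1.22) and the glycolytic enzyme gene Pgk1 (1.17) rose too, whereas the glucose transporter gene Slc2a1 had 154, 160.1 and 138 FPKM at day 9 against 273, 288 and 181 FPKM at day 6 (-0.69, adjusted p = 0.0973). With the rRNA-type share as a covariate, added after seeing the data, only 1 rose and 2 fell, and Bnip3 (adjusted p = 0.0624), P4ha1 (0.100) and Pgk1 (0.0542) no longer passed.

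ACGTG, the core of the hypoxia response element, was present on either strand in 18 of 25 of these genes with a promoter. Over all genes with a promoter the share was 21.8%, and over all promoters 19.6%. The match is shown in capitals for Bnip3 (minus strand, chr7:138909457-138909756), where 2 matches overlap as a palindrome, and for Pgk1 (plus strand, chrX:106186850-106187149), which has 2 separate matches.
Bnip3: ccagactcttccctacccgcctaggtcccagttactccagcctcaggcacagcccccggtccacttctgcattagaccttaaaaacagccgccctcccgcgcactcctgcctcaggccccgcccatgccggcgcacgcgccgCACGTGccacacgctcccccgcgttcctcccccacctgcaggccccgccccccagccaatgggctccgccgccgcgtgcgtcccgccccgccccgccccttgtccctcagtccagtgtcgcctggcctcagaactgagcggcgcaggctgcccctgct
Pgk1: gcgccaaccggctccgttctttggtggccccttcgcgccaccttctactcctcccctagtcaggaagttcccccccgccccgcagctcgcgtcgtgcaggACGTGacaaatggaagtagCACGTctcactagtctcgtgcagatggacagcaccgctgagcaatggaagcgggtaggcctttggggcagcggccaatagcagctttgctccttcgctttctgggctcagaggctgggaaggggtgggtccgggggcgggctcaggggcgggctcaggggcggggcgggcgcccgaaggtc

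The WT step was set against the same step in Atf3 KO cells, to ask which of these changes differ by genotype. The genes were those chosen on the 6 WT libraries alone, so genes expressed only in KO cells could not enter. Atf3 itself did not pass in the WT step, with 13.7, 15.1 and 16.2 FPKM at day 9 against 12.7, 23.99 and 10.9 FPKM at day 6 (log2 fold change -0.00, adjusted p = 0.998). In limma 122 genes, 0.981% of those tested, had a WT step that differed from the KO step at an adjusted p under 0.05, with 50 higher and 72 lower in WT. The count was 78 without WT day 6 replicate 3, 277 without WT day 6 replicate 2, 62 without KO day 6 replicate 2 and 187 without KO day 6 replicate 3. It was 78 without WT day 9 replicate 2 and 74 without WT day 9 replicate 3. Col3a1 rose in both genotypes (4.25 in WT and 4.52 in KO cells, difference -0.27, SE 0.49, adjusted p = 0.875), and so did Acta2 (3.85 and 2.60, difference 1.25, SE 0.59, adjusted p = 0.554). Such a p does not show that the steps were alike.

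**Figure D5:**
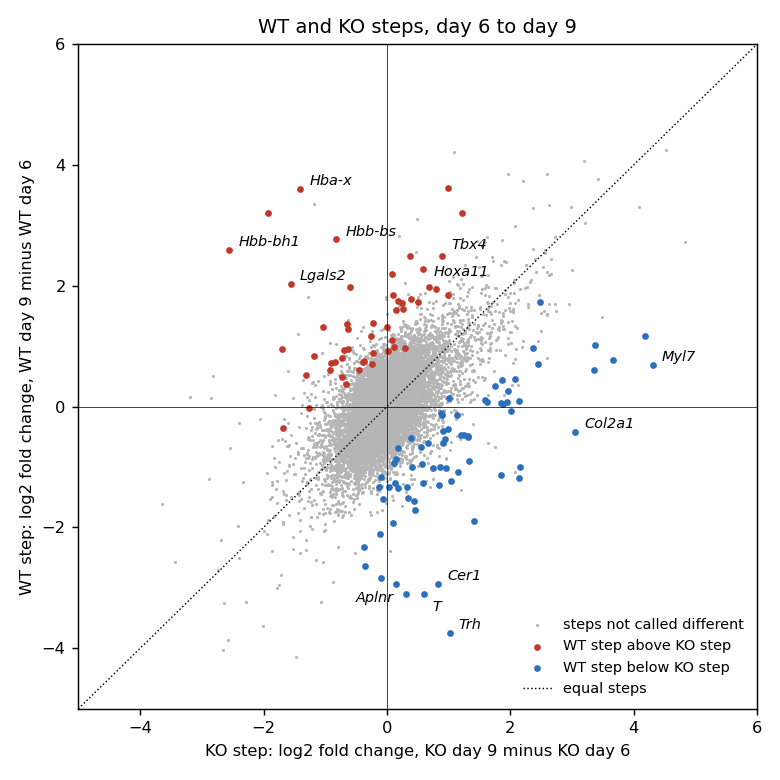
Log2 fold change of day 9 against day 6 in WT cells (vertical axis) and in KO cells (horizontal axis) for the 12442 genes, with the 122 genes whose steps differed coloured. Globin genes such as Hbb-bh1 lie high for WT and below 0 for KO, and Trh, T and Cer1 lie far below 0 for WT and near or above 0 for KO.

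The highest step differences were in globins. The log2 fold change of Hbb-bh1 was 2.60 in WT cells and -2.56 in KO cells (difference 5.15, adjusted p = 0.016), that of Hba-x 3.61 and -1.40 (5.01, adjusted p = 0.0409) and that of Hbb-bs 2.77 and -0.82 (3.59, adjusted p = 0.025). Lgals2, a galectin gene, had 2.03 in WT and -1.56 in KO cells (3.59, adjusted p = 0.0282). Hbb-bh1 averaged 158 ± 52.4 FPKM at day 9 and 29.6 ± 24.4 FPKM at day 6 in WT cells, against 131 ± 77.0 FPKM at day 9 and 1075 ± 839 FPKM at day 6 in KO cells (SD, n = 3 each). The day 9 means lay within each other's spread, and the widest spread was in KO cells at day 6. None of these 4 differences was called without KO day 6 replicate 2, with adjusted p = 0.0673 for Hbb-bh1, 0.140 for Hba-x, 0.101 for Hbb-bs and 0.112 for Lgals2, or without WT day 6 replicate 3, WT day 9 replicate 3 or KO day 9 replicate 1, and the highest of these other values was 0.128.

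Of the 16 tested streak genes, 9 had a lower step in WT than in KO cells and none a higher one. Over all tested genes, 0.579% had a lower step in WT. Cer1, Fgf8 and Mesp1 entered the test through their WT day 6 values alone, which favours a lower step in WT cells. The log2 fold change of T was -3.10 in WT and 0.60 in KO cells (difference -3.70, adjusted p = 0.0395), that of Cer1 -2.94 and 0.83 (-3.76, adjusted p = 2.77e-06) and that of Aplnr -3.11 and 0.31 (-3.41, adjusted p = 2.86e-05). Trh, which is not in that list, had -3.74 and 1.02 (-4.76, adjusted p = 4.62e-05). T averaged 0.937 ± 0.287 FPKM at day 9 and 15.6 ± 0.991 FPKM at day 6 in WT cells, against 6.04 ± 9.27 FPKM at day 9 and 1.93 ± 2.17 FPKM at day 6 in KO cells. Trh averaged 24.7 ± 8.36 FPKM at day 9 and 353 ± 162 FPKM at day 6 in WT cells, against 61.2 ± 5.89 FPKM at day 9 and 33.2 ± 20.6 FPKM at day 6 in KO cells. The day 6 means of both genes were lower in KO than in WT cells. The differences of Cer1, Aplnr and Trh were called without each of the 12 libraries in turn. That of T was not called without KO day 6 replicate 2 (adjusted p = 0.137) nor without KO day 6 replicate 1 (0.063), any WT day 9 library (0.0748 to 0.0881) or WT day 6 replicates 1 or 3 (0.0765 and 0.0937). Foxh1 fell in both genotypes (-3.86 in WT and -2.57 in KO cells, difference -1.29, adjusted p = 0.0855).

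Of the 22 tested Hox genes, 8 had a higher step in WT than in KO cells and 1 a lower one, beside 0.402% and 0.579% of all tested genes. Hoxa13, Hoxd13 and Ppbp entered the test through their WT day 9 values alone, which favours a higher step in WT cells. The log2 fold change of Hoxa10 was 1.72 in WT and 0.25 in KO cells (difference 1.46, adjusted p = 9.53e-04) and that of Hoxa11 2.27 and 0.58 (1.70, adjusted p = 0.00289). Hoxa13 rose in both (1.95 and 0.79, difference 1.16, adjusted p = 0.0122), as did Hoxd13 (1.98 and 0.69, difference 1.29, adjusted p = 0.0118). Tbx4 (2.49 in WT and 0.90 in KO cells, difference 1.59, adjusted p = 0.0192), Rhox6 (3.61 and 0.98, difference 2.63, adjusted p = 0.0397) and Ppbp (1.85 and 0.99, difference 0.86, adjusted p = 0.0154) also had the higher step in WT. Of the heart muscle genes 3 had a lower step in WT cells, among them the atrial light chain Myl7 (0.70 in WT and 4.31 in KO cells, difference -3.61, adjusted p = 0.02) and Myh6 (0.60 and 3.36, difference -2.75, adjusted p = 1.25e-04). Both rose in KO cells and did not pass in WT cells. The differences of the Hox genes named here and of Myh6 were called without each of the 12 libraries. Without KO day 6 replicate 2 the adjusted p was 0.0608 for Tbx4, 0.132 for Rhox6, 0.0673 for Ppbp and 0.0562 for Myl7. Tbx4 was also not called without WT day 6 replicate 3 or WT day 9 replicate 2, Ppbp without WT day 9 replicate 3, Myl7 without 5 other libraries (0.0503 to 0.0711) and Rhox6 without 6 other libraries (0.0505 to 0.123).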

How the data were processed

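Gene-level FPKM of 24 poly(A)-selected RNA-seq libraries were used, as deposited by the authors. The submitters' processing notes name HISAT2 2.2.1 and build mm10, featureCounts 2.0.1, Trimmomatic 0.39 and FastQC 0.11.9, besides R 4.1.0 and DESeq2 1.30.1. The scaling of the FPKM and the use of strand are not stated in these sources. Of the 24 columns 23 were tied to a numbered sample, and 1 KO day 0 column to its group alone. Reads per gene were recovered from the FPKM steps and GENCODE vM21 exon lengths, for depth and for voom alone.

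Values were tested as log2(FPKM + 1) with limma 3.58.1 in R 4.3.3, with all 8 groups in 1 fit (16 residual degrees of freedom) and a trended prior, and p-values were adjusted over 12442 genes by Benjamini-Hochberg. The code was tested on simulated data first. Tables and figures were made in Python 3.11.15 with matplotlib 3.10.9, scipy 1.17.1, numpy 2.4.6 and pandas 2.3.3.

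Genes were named by rule: the 12 highest and 12 lowest fold changes among called genes whose groups do not overlap and whose mean is at least 5 FPKM in the higher group, leaving out predicted genes and small RNAs; the first 3 members of each of 47 lists with up to 6 called members of largest change; Atf3; and the 4 highest and 4 lowest step differences. Not every list or gene covered by this rule is described, and Ttr is among the genes left out. Other genes named were chosen after their values were seen. The groups, members and lists were chosen with earlier results of these data known. Pseudocount, filter, scaling, fitted samples, library weights, model and left-out libraries were varied.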

Additional observations from a re-analysis of the deposited data

Results flagged for a closer look

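The results below differ between genotypes by the limma test of the WT step minus the KO step, and are log2 differences. The genes tested were chosen on the WT day 6 and day 9 libraries alone. The step of Trh was lower in WT cells, at -4.76. Streak and mesoderm genes had a lower step in WT cells as well: Cer1 -3.76, T -3.70, Aplnr -3.41, Lhx1 -3.07, Foxc2 -2.98, Fgf8 -2.73, Dll3 -2.27, Eomes -2.02, Mesp1 -1.94 and Sp5 -1.66. The same held for the neural and anterior factor Otx2 (-3.30), for Bmp7 (-1.41), for Hoxb1 (-1.20) and for the heart genes Myl7 (-3.61) and Myh6 (-2.75).

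Globin genes had a higher step in WT cells, at 5.15 for Hbb-bh1, 5.01 for Hba-x and 3.59 for Hbb-bs, as did Lgals2 at 3.59. Further higher steps were 2.63 for Rhox6, 2.12 for Rhox9, 1.70 for Hoxa11, 1.59 for Tbx4, 1.46 for Hoxa10, 1.32 for Hoxd10, 1.29 for Hoxd13, 1.16 for Hoxa13 and 0.86 for Ppbp.

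Several of these calls rested on KO day 6 replicate 2. Without it the adjusted p was 0.0644 for Sp5, 0.115 for Bmp7, 0.132 for Mesp1, 0.128 for Eomes, 0.0999 for Fgf8 and 0.0701 for Hoxb1, none of them called. Bmp7, Mesp1, Eomes and Fgf8 also lost the call without each of several other libraries, up to 0.123 for Eomes without WT day 6 replicate 3 and 0.110 for Mesp1 without KO day 9 replicate 1. The differences of Trh, Cer1, Aplnr, Lhx1, Foxc2, Dll3, Rhox9, Myh6, Hoxa10, Hoxa11, Hoxa13, Hoxd10 and Hoxd13 were called without each of the 12 libraries in turn.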

How the results depend on the processing

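The count of 1970 genes between WT day 9 and WT day 6 was 894 with a stricter filter, 4867 under TPM, 421 with median-of-ratios scaling over the 6 libraries, 440 with these libraries fitted alone, 7764 with array weights and 1027 with the rRNA-type share as a covariate, which was added after seeing the data. Without single libraries it ran from 828 to 3932. The count of 122 step differences was 49 with a pseudocount of 0.1, 246 without a filter, 13 with the stricter filter, 49 under TPM, 1644 with array weights and 52 with voom. Without single libraries it ran from 62 to 277. Median-of-ratios scaling over the 6 WT libraries gives no step difference, as it leaves out KO libraries. With limma, the fit with these 6 libraries alone keeps the fold changes and differs in the spread it uses. Array weights change the group means as well as the spread. They were 10.9 for WT day 9 replicate 2 and 0.23 for WT day 9 replicate 1. The cause of the other shifts was not tested.

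Same-numbered WT libraries did not all deviate together, with correlations of -0.26, -0.41 and 0.43 for numbers 1 to 3. With 3 libraries a day that differ in rRNA-type share, this cannot decide whether the numbers pair the samples. With the replicate number as a block, 2914 genes passed between the days and 201 step differences passed. Only replicate 3 of WT day 9 correlated best with its own number.

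Of the named fold changes, those that changed sign under TPM were Atf3 (1.03), Axin2 (0.38), Bmp2 (0.72), Bmp4 (0.71), Foxf1 (0.39), Gata3 (0.59), H19 (0.43), H2-D1 (0.53), H2-K1 (0.067), Hand1 (0.094), Lama5 (0.0065), Lef1 (0.64), Mki67 (0.52), Pou5f1 (0.96), Rarg (0.13), Rpl12 (0.23) and Slc2a1 (0.41). With equal sums these were Atf3 (0.35), Bmp2 (0.070), Bmp4 (0.014), Lef1 (0.030), Mki67 (0.032) and Pou5f1 (0.24). With array weights they were Atf3 (0.20), Axin2 (0.055), Bmp2 (0.23), Fbn1 (-0.0634), Gata3 (0.048), Lef1 (0.026), Pou5f1 (0.58) and Top2a (-0.52). With the covariate they were Fbn1 (-0.0086), Gata3 (0.25), Lef1 (0.15), Pou5f1 (0.51), Top2a (-0.52) and Vegfa (-0.15), and with the smaller pseudocount Atf3 (0.0027). Without single libraries the sign was unstable for Atf3 (-0.22 to 0.32), Gata3 (-0.78 to 0.23), Kdr (-0.14 to 0.61), Lef1 (-0.48 to 0.0007), Mki67 (-0.49 to 0.0023), Pou5f1 (-0.44 to 0.43) and Top2a (-0.41 to 0.71). Of these genes, Hand1, Lama5, H2-K1, Rarg and Rpl12 were called with FPKM. Of 170 named fold changes, 140 kept direction and side of the threshold without WT day 6 replicate 3, and 161 did in the fit of the 12 WT libraries. The 4272090 reads outside rRNA-type genes in WT day 6 replicate 3 limit low genes most.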

Other observations

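Genes of sterol synthesis were higher at day 9 in part. Of 23 tested genes of cholesterol and fatty acid synthesis 6 rose and none fell, with a median of 0.63. Msmo1, a sterol oxidase, had 19.4, 17.1 and 15.1 FPKM at day 9 against 5.78, 7.65 and 3.10 FPKM at day 6 (1.54, adjusted p = 0.0063 in limma), and Cyp51 (1.31) and Nsdhl (1.21) rose as well. None of the 23 rose without WT day 6 replicate 3, while 9 rose without WT day 6 replicate 2 or WT day 9 replicate 3, and 3 without each of the other 3 WT libraries. With KO libraries left out, 9 rose without KO day 6 replicate 1, 10 without KO day 6 replicate 3, and 6 or 7 without each of the others. With the rRNA-type share as a covariate, added after seeing the data, 1 rose, and under TPM 18 did.

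Of 17 tested cell cycle inhibitors and p53 targets, 3 rose and 2 fell, beside 9.61% and 6.22% of all tested genes, with a median of -0.07. Among the 3 were neighbouring inhibitor genes on chromosome 4. Cdkn2b had 16.4, 18.3 and 19.3 FPKM at day 9 against 3.34, 9.14 and 3.95 FPKM at day 6 (1.66, adjusted p = 3.00e-04), and Cdkn2a had 20.6, 28.5 and 45.2 FPKM at day 9 against 7.72, 14.6 and 8.02 FPKM at day 6 (1.53, adjusted p = 0.0022). Cdkn1a did not pass (0.24, adjusted p = 0.393). No left-out WT library kept both counts of the list. Without WT day 6 replicate 3 or WT day 9 replicate 1, 2 rose and none fell. Without WT day 6 replicate 1 or WT day 9 replicate 2, 2 rose and 1 fell. The counts were 4 and 1 without WT day 6 replicate 2, and 3 and 1 without WT day 9 replicate 3. In the list 1 fell without KO day 6 replicate 2, and under TPM 4 rose and none fell.

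Neural markers were mostly below the filter, 17 of 24 among them. Tubb3, a tubulin of neurons, had 12.8, 21.7 and 23.7 FPKM at day 9 against 3.81, 3.77 and 4.17 FPKM at day 6 (2.01, adjusted p = 3.82e-04). Otx2, a factor of the anterior embryo, had 0.984, 0.805 and 0.845 FPKM at day 9 against 4.10, 3.52 and 13.5 FPKM at day 6 (-1.89, adjusted p = 0.00269).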
